A study of Mus musculus with 6 samples.

Results

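Wnt ligands, R-spondins, frizzled receptors, the R-spondin receptor Lgr4 and the Wnt target Axin2 were followed in fetal liver mesenchyme at embryonic day 18 (E18) against embryonic day 16 (E16). The 10 genes were listed by name: the ligands Wnt2, Wnt4 and Wnt5a, the R-spondins Rspo1 and Rspo3, the receptors Fzd1, Fzd2, Fzd7 and Lgr4, and Axin2. All 10 were found among the 54532 genes of the deposited table. RNA came from livers of CD-1 mouse embryos of genotype Sm22-Cre/ROSA26RYFP, in which Cre made from the Sm22 promoter switches on a yellow fluorescent reporter in smooth muscle and related cells and in their descendants. Both groups carried this genotype. Livers were digested with collagenase IV and Dispase, and eYFP-positive cells were collected on a sorter. There were 3 libraries at E18 and 3 at E16, lettered A, B and C on each day. The labels do not tie a library to an animal, a litter or a pool, so the p-values below measure the spread between libraries, which may be technical.

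Wnt proteins are secreted lipid-modified ligands that bind frizzled receptors and their co-receptors. In one branch of the pathway they keep beta-catenin from being degraded, and it then works with TCF/LEF factors at target genes. In another branch they steer cell shape and movement without beta-catenin. R-spondins bind Lgr receptors and remove the ubiquitin ligases Rnf43 and Znrf3 from the cell surface, which leaves more frizzled receptor there. In the liver, Wnt and R-spondin signals are known for setting the programme of hepatocytes around the central vein and for driving hepatocyte growth.

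Values are TPM (transcripts per unit of total transcripts), a level scaled to gene length, so that levels of different genes may be set side by side. Reads recovered from the TPM steps numbered 14587544 to 18281942 per library at E18 and 21130197 to 22626885 at E16. The libraries held transcripts of several cell types. The summed TPM of 10 erythroid markers was 10556 to 18009 at E18 and 5672 to 7372 at E16, and that of 10 hepatocyte markers was 376 to 980 at E18 and 2072 to 8736 at E16. Mesenchymal lists were higher at E18, with 130 to 408 TPM at E18 and 25.8 to 60.2 TPM at E16 for 10 stellate cell markers, and 250 to 513 TPM at E18 and 29.2 to 76.5 TPM at E16 for 8 smooth muscle markers. Among the smooth muscle markers Tagln, the gene of the Sm22 promoter, stood at 3.14 ± 0.258 TPM at E18 and 1.06 ± 0.408 TPM at E16 (SD, n = 3 each), with 67.9% of its exon length under genes of the opposite strand. In samples of this kind, a change in the number of cells of a type cannot be told apart from a change of RNA per cell.

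The promoters of the genes the comparison turns on are shown first: Fzd1 and Rspo1, which were higher at E18, Fzd7, the close relative of Fzd1 whose level did not move with it, and Axin2, a textbook target of beta-catenin and TCF/LEF. RefSeq (GRCm38.p6) held a promoter window for 7 of the 10 genes, of 250 bases before and 50 after the RefSeq start. Wnt5a, Rspo3 and Fzd2 had no entry there. The 250 bases before the start are printed 5′ to 3′ on the gene's own strand. Capitals mark CTTTGA or CTTTGT on either strand, the core hexamers that TCF/LEF proteins prefer.
Fzd1, chr5:4758217-4758466, minus strand: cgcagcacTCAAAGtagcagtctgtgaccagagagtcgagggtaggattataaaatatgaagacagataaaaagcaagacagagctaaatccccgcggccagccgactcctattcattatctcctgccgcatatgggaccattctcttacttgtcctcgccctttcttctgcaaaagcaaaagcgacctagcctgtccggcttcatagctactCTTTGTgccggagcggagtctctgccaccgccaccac
Fzd7, chr1:59481897-59482146, plus strand: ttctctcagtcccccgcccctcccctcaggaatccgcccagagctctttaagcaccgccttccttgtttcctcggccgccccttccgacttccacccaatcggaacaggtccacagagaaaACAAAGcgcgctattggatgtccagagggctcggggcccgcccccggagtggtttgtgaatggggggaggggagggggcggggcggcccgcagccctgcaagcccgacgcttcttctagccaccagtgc
Rspo1, chr4:124986180-124986429, plus strand: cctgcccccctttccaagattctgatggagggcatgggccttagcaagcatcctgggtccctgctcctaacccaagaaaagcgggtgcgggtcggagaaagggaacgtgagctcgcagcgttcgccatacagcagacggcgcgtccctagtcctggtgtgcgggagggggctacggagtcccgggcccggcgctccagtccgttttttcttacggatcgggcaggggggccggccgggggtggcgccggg
Axin2, chr11:108920099-108920348, plus strand: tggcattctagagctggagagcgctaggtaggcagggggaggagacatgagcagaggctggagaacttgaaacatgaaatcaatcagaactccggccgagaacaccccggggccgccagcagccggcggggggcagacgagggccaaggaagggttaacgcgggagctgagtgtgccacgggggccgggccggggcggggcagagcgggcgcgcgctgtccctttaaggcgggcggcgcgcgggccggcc

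Of the 7 windows, 2 held such a hexamer, in Fzd1 and Fzd7. Over all 32851 RefSeq promoter windows of the same 300 bases, 31.2% held one. Distances here are from the RefSeq start, which for Fzd1 and Fzd7 lies upstream of the gene span given below. The Fzd1 window had CTTTGA on the opposite strand 242 bases before the start and CTTTGT on the gene's strand 37 bases before it. The Fzd7 window had CTTTGT on the opposite strand 129 bases before the start. These are matches of letters in a short window, and no binding was measured. The printed Fzd1 stretch was 51.2% G and C, against 65.2% for Fzd7, 66.8% for Rspo1 and 69.2% for Axin2.

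E18 was compared with E16 to ask how far the transcripts of Wnt ligands, receptors and their target differ between the stages. Fzd1, Rspo1 and Wnt5a rose, by 2.40 ± 0.37, 1.86 ± 0.36 and 1.65 ± 0.31 (log2 fold change ± SE on the log2(TPM + 1) scale). Their limma adjusted p values were 0.0328, 0.0447 and 0.0418. These were 3 of the 9 members tested, 0 fell, and 6 did not pass. Over all 17824 genes tested, 3.47% were called and 3.08% were called higher at E18. These were 549 higher and 69 lower genes, or 314 higher and 85 lower with quantile normalization. The median over all genes tested was 0.07 on the log2 scale, and −0.08 under that normalization. Genes were tested if they had at least 1 TPM in at least 3 libraries. Wnt2 did not reach this, and Wnt5a and Rspo3 reached it through their E18 libraries alone. The members were also chosen with earlier results of these data known. The count of members called is thus no measure of how often Wnt genes differ.

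**Figure D1:**
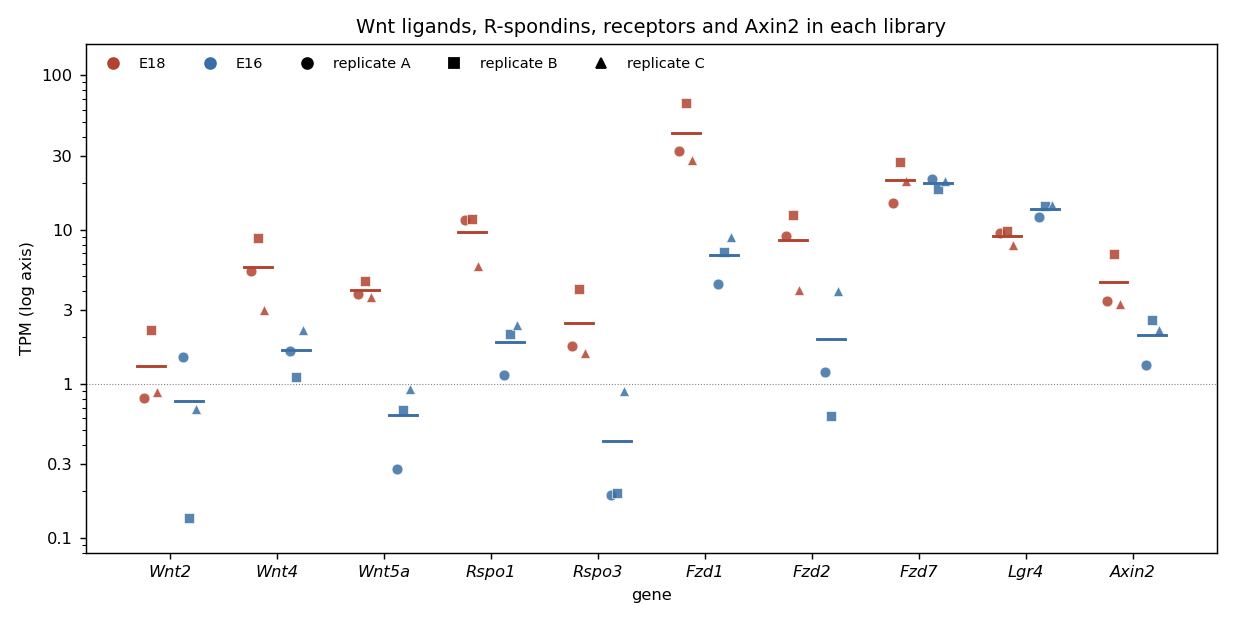
TPM of the 10 genes in every library, on a log axis, with E18 left of E16 for each gene; symbols mark replicates A, B and C and bars the mean of 3 libraries, and the dotted line is 1 TPM. The 3 E18 values of Fzd1, from 28.1 to 66.0 TPM, lie above its E16 values of 4.43 to 8.94 TPM, while the days overlap for Fzd7 and Wnt2.

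Among the ligands, Wnt5a (ENSMUSG00000021994, chromosome 14, 28504750 to 28527448, plus strand, mm10), best known for signals that do not use beta-catenin, had 3.82, 4.61 and 3.68 TPM in E18 libraries A, B and C, against 0.281, 0.674 and 0.928 TPM in E16 libraries A, B and C. The E18 libraries lay close together and all above those of E16. These E16 levels rest on 15, 35 and 47 reads, and the E18 levels on 132, 165 and 159 reads. The mean was 4.04 ± 0.504 TPM at E18 and 0.627 ± 0.326 TPM at E16 (SD, n = 3 each), 6.44 times as high at E18. With voom on the recovered reads, which adds a fraction of a read in place of 1 TPM, its log2 fold change was 2.80 (limma adjusted p = 0.00894). That fit called 1469 genes, against 618 in the main fit. Wnt5a entered these fits through its E18 libraries alone, and its call was lost in 10 of 16 alternative fits.

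Wnt4 (ENSMUSG00000036856, chromosome 4, 137277489 to 137299726, plus strand), a ligand needed in mouse for kidney tubules and the ovary, had 5.35, 8.76 and 3.02 TPM in E18 libraries A, B and C and 1.64, 1.11 and 2.25 TPM in E16 libraries A, B and C. Each E18 value was above each E16 value, but the E18 libraries spread widely. The log2 fold change was 1.26 ± 0.40, with a 95% interval from 0.31 to 2.21, and the limma adjusted p was 0.131, above the threshold. At E18 Wnt4 and Wnt5a stood at similar levels, and their ratio within a library ran from 0.527 to 1.22 Wnt5a per Wnt4 at E18 and from 0.171 to 0.605 at E16, with overlap.

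Wnt2 (ENSMUSG00000010797, chromosome 6, 17988940 to 18030585, minus strand), a ligand that endothelial cells make in the mouse liver, was the lowest of the 10 genes at E18. It had 0.804, 2.23 and 0.883 TPM in E18 libraries A, B and C and 1.49, 0.134 and 0.685 TPM in E16 libraries A, B and C, from 2 to 23 reads. The days overlapped, and at this depth no difference was detectable. The 10 endothelial markers summed to 19.9 to 27.4 TPM at E18 and 28.7 to 41.9 TPM at E16, lower at E18 without overlap. Egfl7 alone had a lower mean at E18 and made up most of this sum, at 12.5 to 22.5 TPM at E18 and 26.2 to 39.2 TPM at E16. Each other marker had a higher mean at E18 than at E16, at low levels, so the fall of the sum is that of Egfl7. Of the others Tek reached 4.32 TPM at E18 and 0.839 TPM at E16, and Cdh5, a defining marker, reached 0.270 TPM at E18 and is listed at 0 in each E16 library.

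The R-spondins were led by Rspo1 (ENSMUSG00000028871, chromosome 4, 124986430 to 125009099, plus strand), known in mammals for its part in ovary determination. It had 11.5, 11.7 and 5.79 TPM in E18 libraries A, B and C, against 1.13, 2.10 and 2.39 TPM in E16 libraries A, B and C. The lowest E18 value was more than the highest E16 value. Means were 9.66 ± 3.36 TPM at E18 and 1.87 ± 0.658 TPM at E16 (SD, n = 3 each), from 62 to 104 reads at E18 and 15 to 30 at E16. Rspo1 had the third highest mean of the 10 genes at E18 and the sixth at E16.

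Rspo3 (ENSMUSG00000019880, chromosome 10, 29452416 to 29535867, minus strand), which maintains the pericentral hepatocyte programme in adult mouse liver, had 1.76, 4.11 and 1.58 TPM in E18 libraries A, B and C and 0.190, 0.195 and 0.900 TPM in E16 libraries A, B and C. The E16 values of A and B are 4 reads each. The days did not overlap, and the log2 fold change of 1.25 ± 0.40 did not pass (limma adjusted p = 0.131). Exons of a gene on the opposite strand cover 13.1% of its exon length, against 4.58% for Wnt5a and 3.80% for Axin2, and the strand setting of the counting is not given in the sources used here. Rspo1 made up 71.8% to 86.1% of R-spondin TPM at E18 and 68.3% to 78.8% at E16, so its share overlapped between the days while the sum of the 4 R-spondins was 12.5 ± 4.39 TPM at E18 and 2.57 ± 1.05 TPM at E16 (SD, n = 3 each).

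Fzd1 (ENSMUSG00000044674, chromosome 5, 4753839 to 4758035, minus strand) and Fzd7 (ENSMUSG00000041075, chromosome 1, 59482424 to 59486955, plus strand) are close relatives in the frizzled family, and the annotation gives each as a single exon. Fzd1 had 32.2, 66.0 and 28.1 TPM in E18 libraries A, B and C, against 4.43, 7.10 and 8.94 TPM in E16 libraries A, B and C. Its E18 values all lay far above those of E16, and E18 library B was the highest by a wide margin. It had the highest mean of the 10 genes at E18, at 42.1 ± 20.8 TPM, against 6.82 ± 2.27 TPM at E16 (SD, n = 3 each). These values rest on 596 to 1266 reads at E18 and 127 to 243 at E16.

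Fzd7 had 14.9, 27.3 and 20.7 TPM in E18 libraries A, B and C and 21.4, 18.3 and 20.5 TPM in E16 libraries A, B and C. The E18 libraries lay on both sides of those of E16. Its log2 fold change was 0.02 ± 0.23, with a 95% interval from −0.52 to 0.57 (limma adjusted p = 0.972), and its sign changed with the scaling. The interval does not reach the fold of Fzd1, whose 95% interval was 1.53 to 3.27.

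Within a library, the ratio of Fzd1 to Fzd7 does not depend on how libraries are scaled. It was 2.16, 2.42 and 1.36 in E18 libraries A, B and C, against 0.207, 0.387 and 0.436 in E16 libraries A, B and C. Fzd1 was thus the higher of the pair in 3 of 3 E18 libraries and the lower in 3 of 3 E16 libraries. The exact 2-sided permutation test on the log2 ratio gave p = 0.1, the smallest that 3 against 3 libraries can give.

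Fzd2 (ENSMUSG00000050288, chromosome 11, 102604396 to 102608058, plus strand), the third of this group of relatives, had 9.09, 12.5 and 4.05 TPM in E18 libraries A, B and C and 1.20, 0.617 and 4.005 TPM in E16 libraries A, B and C. The lowest E18 and the highest E16 value, both from libraries lettered C, nearly met. Its log2 fold change of 1.76 ± 0.54 did not pass (limma adjusted p = 0.12).

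**Figure D2:**
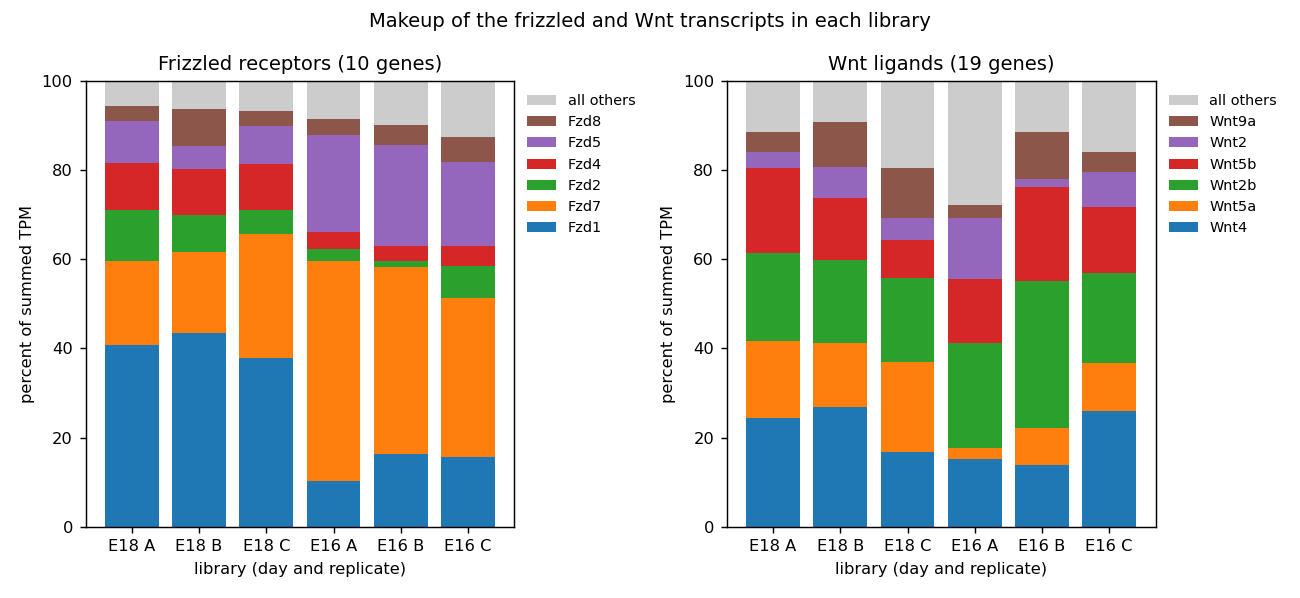
Share of each gene in the summed TPM of all 10 frizzled genes (left) and all 19 Wnt genes (right), in percent, 1 bar per library, with the E18 libraries left of the E16 libraries. Fzd1 holds 37.8% to 43.6% of frizzled TPM at E18 and 10.3% to 16.2% at E16, and Fzd7 18.0% to 27.8% at E18 and 35.8% to 49.4% at E16.

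The makeup of the frizzled transcripts differed between the days. Fzd1 held 40.7% ± 2.89 of frizzled TPM at E18 and 14.0% ± 3.30 at E16, and Fzd7 held 21.6% ± 5.44 at E18 and 42.4% ± 6.80 at E16 (SD, n = 3 each). Fzd5, at 7.74% ± 2.14 at E18 and 21.1% ± 1.90 at E16, also took a smaller share, and Fzd4 took a larger one, at 10.4% ± 0.132 at E18 and 3.90% ± 0.527 at E16. Fzd9 held 1.70% ± 0.404 at E18 and 6.27% ± 3.24 at E16. For these 5 of the 10 frizzled genes the shares of the days did not overlap. Their exact permutation p was 0.1 each, which follows from the lack of overlap and adds nothing to it. The frizzled sum was 102 ± 43.2 TPM at E18 and 48.1 ± 7.96 TPM at E16. Shares of 1 sum are tied, so a rise of Fzd1 lowers the other shares and the 5 are not separate results. Among the Wnt genes Wnt5a held 14.2% to 20.3% at E18 and 2.60% to 10.8% at E16, with no overlap. Wnt6 and Wnt11 also had larger shares at E18 without overlap, and Wnt2b a smaller one, at 19.1% ± 0.515 at E18 and 25.5% ± 6.68 at E16. The TPM of Wnt2b itself was higher at E18, at 3.40 to 6.09, than at E16, at 1.73 to 2.65. Wnt6 rests on 3, 5 and 18 reads in E18 libraries A, B and C. The shares of the other 15 Wnt genes, Wnt4 and Wnt2 among them, overlapped. All 19 Wnt genes together came to 18.1 to 32.5 TPM at E18 and 8.05 to 10.8 TPM at E16.

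Lgr4 (ENSMUSG00000050199, chromosome 2, 109917647 to 110014257, plus strand), a receptor for R-spondins, ran the other way. It had 9.51, 9.85 and 7.94 TPM in E18 libraries A, B and C, against 12.1, 14.1 and 14.4 TPM in E16 libraries A, B and C. All 3 E18 values lay below the lowest E16 value. The log2 fold change was −0.53 ± 0.20, with a 95% interval from −0.99 to −0.07, and the limma adjusted p was 0.181. The hepatocyte marker sum was also lower in each E18 library than in any E16 library, and its part in this difference was not tested. Rspo1 came to 1.20, 1.19 and 0.730 TPM per TPM of Lgr4 in E18 libraries A, B and C and to 0.0935, 0.149 and 0.166 in E16 libraries A, B and C.

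Axin2 (ENSMUSG00000000142, chromosome 11, 108920349 to 108950783, plus strand), which beta-catenin switches on and whose product feeds back to break beta-catenin down, had 3.46, 6.95 and 3.29 TPM in E18 libraries A, B and C and 1.33, 2.60 and 2.24 TPM in E16 libraries A, B and C. E18 libraries A and C lay just above the highest E16 library, and E18 library B stood apart. Means were 4.57 ± 2.07 TPM at E18 and 2.06 ± 0.654 TPM at E16 (SD, n = 3 each), from 84 to 175 reads at E18 and 50 to 95 at E16. The log2 fold change of 0.83 ± 0.37 did not pass (limma adjusted p = 0.262), and its 95% interval ran from −0.04 to 1.69.

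**Figure D3:**
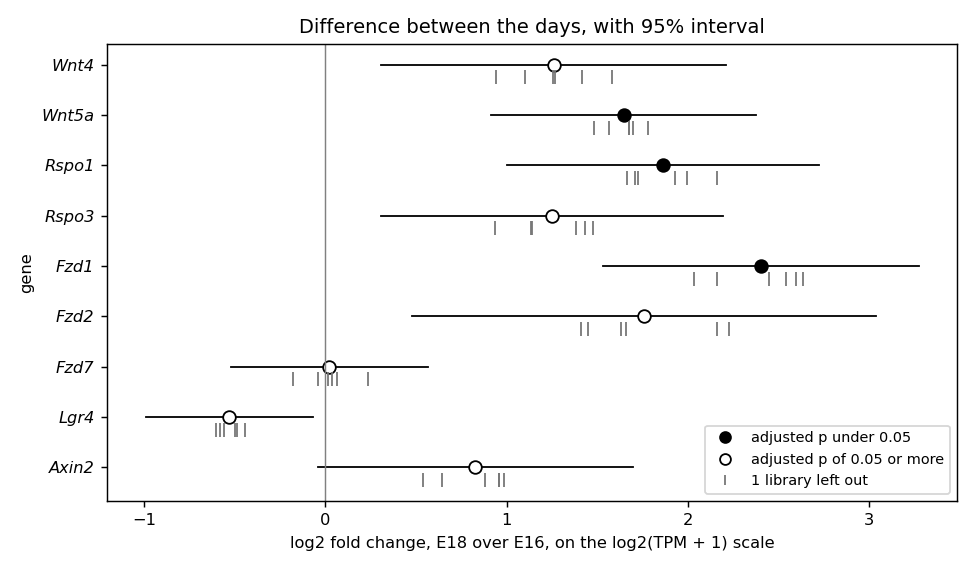
Log2 fold change of E18 over E16 on the log2(TPM + 1) scale for the 9 genes tested, with the 95% interval as a line; filled points passed at adjusted p under 0.05, and ticks below each point are the values with 1 library left out. Fzd1, Rspo1 and Wnt5a passed, at 2.40, 1.86 and 1.65, and Lgr4 stands at −0.53.

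In all, the E18 values were above the E16 values without overlap for 7 of the 10 genes and below them for Lgr4. Over all genes tested, 26.5% did not overlap between the days, 18.4% being higher and 8.05% lower at E18. The exact permutation p was 0.1 for all 8 genes, which follows from the lack of overlap and adds nothing to it. Wnt2 and Fzd7 have 0.4 and 0.8. The 7 higher genes include Wnt5a and Rspo3, which passed the filter through their E18 libraries alone, and Wnt2 was not tested. The members were also chosen with earlier results of these data known. This count is thus no measure of how often Wnt genes differ. By mean level the order at E18 was Fzd1, Fzd7, Rspo1, Lgr4, Fzd2, Wnt4, Axin2, Wnt5a, Rspo3 and Wnt2. At E16 it was Fzd7, Lgr4, Fzd1, Axin2, Fzd2, Rspo1, Wnt4, Wnt2, Wnt5a and Rspo3. Neighbours in this order overlapped in their ranges over libraries, apart from Fzd1 above Fzd7 and Fzd7 above Rspo1 at E18, and Fzd7 above Lgr4, Lgr4 above Fzd1 and Fzd1 above Axin2 at E16. E18 library B had the highest value of the 3 E18 libraries in 10 of 10 genes, and also the highest stellate list sum, 408 TPM against 159 and 130 in E18 libraries A and C. How many of all genes tested were highest in this library was not counted, and a link to the stellate sum was not tested.

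Most calls were lost when 1 library was left out. In the fits without E16 library A or C or E18 library A or B, 0 of all 17824 genes tested passed. Every call was lost there, so the losses in those fits are not particular to Fzd1, Rspo1 or Wnt5a. Without E16 library B 55 genes passed, and Fzd1, Rspo1 and Wnt5a were not among them. Without E18 library C 664 genes passed, with Fzd1 and Rspo1 but not Wnt5a among them. Without E16 library A, B or C or E18 library A or B, Fzd1 had limma adjusted p of 0.102, 0.0863, 0.0646, 0.0977 and 0.0748, and it was 0.0409 without E18 library C. For Rspo1 the values in the same order were 0.128, 0.10, 0.0961, 0.144, 0.129 and 0.0423, and for Wnt5a 0.131, 0.0986, 0.0961, 0.127, 0.11 and 0.0559. The log2 fold changes in these fits stayed between 2.03 and 2.63 for Fzd1, 1.66 and 2.16 for Rspo1 and 1.48 and 1.78 for Wnt5a. Rspo1 and Wnt5a also missed the threshold at a pseudocount of 0.1 (limma adjusted p = 0.051 and 0.0619) and with quantile normalization (0.0655 and 0.0829), while Fzd1 passed in both.

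The levels were also set against the summed TPM of the 10 stellate markers in the same library, a description added after the values had been seen. Fzd1 came to 20.3, 16.2 and 21.6 TPM per 100 TPM of stellate markers in E18 libraries A, B and C and to 17.2, 20.3 and 14.8 in E16 libraries A, B and C. On this scale the days overlapped for Fzd1, Fzd2, Rspo1, Rspo3, Wnt2, Wnt4 and Wnt5a. Fzd7, Lgr4 and Axin2 were lower at E18 without overlap, with Axin2 at 2.18, 1.70 and 2.53 TPM per 100 in E18 libraries A, B and C and 5.15, 7.42 and 3.72 in E16 libraries A, B and C. The stellate list itself was 5.76 times as high at E18 by its mean, and 4 of its 10 genes rose. A gene that rose less than this divisor comes out lower at E18 on this scale. The median over all genes tested was 0.07 on the log2 scale, so lower values here are no measure of a fall per cell. The smooth muscle and portal fibroblast lists were higher at E18 as well, with 6 of 8 genes risen in each, against the 3.08% of all genes tested. The mesothelial list, with 4 of 8 genes risen, was also higher by its sum without overlap. The part of these cell types in the differences of Fzd1, Rspo1 and Wnt5a was not tested.

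The rest of the pathway was counted in lists of genes by role. Of 101 distinct genes in 12 lists, 65 were tested, 11 rose and 1 fell. Over every gene tested, 3.08% were called higher and 0.387% lower. The median of the 65 was 0.59 on the log2 scale, against 0.07 over every gene tested. The filter was reached through the libraries of 1 day alone by 8 of the 65: Wnt5a, Rspo3, Fzd3, Lgr6, Tcf7l1, Nkd2 and Apcdd1 through E18, and Lect2 through E16. These hold 4 of the 11 risen genes and the 1 that fell, so neither these counts nor the medians of the lists measure how often pathway genes differ. Lists share genes, and they were drawn up with earlier results of these data known. Among the 10 frizzled genes, 9 were tested and 2 rose, Fzd1 and Fzd4, the receptor known in mouse for retinal vessels, which had 8.33, 15.6 and 7.65 TPM in E18 libraries A, B and C and 1.61, 1.52 and 2.57 TPM in E16 libraries A, B and C (limma adjusted p = 0.0381). The median of the frizzled list was 0.76. Fzd3 at 0.69 ± 0.30 and Fzd5 at −0.42 ± 0.21 (log2 ± SE) did not pass.

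**Figure D4:**
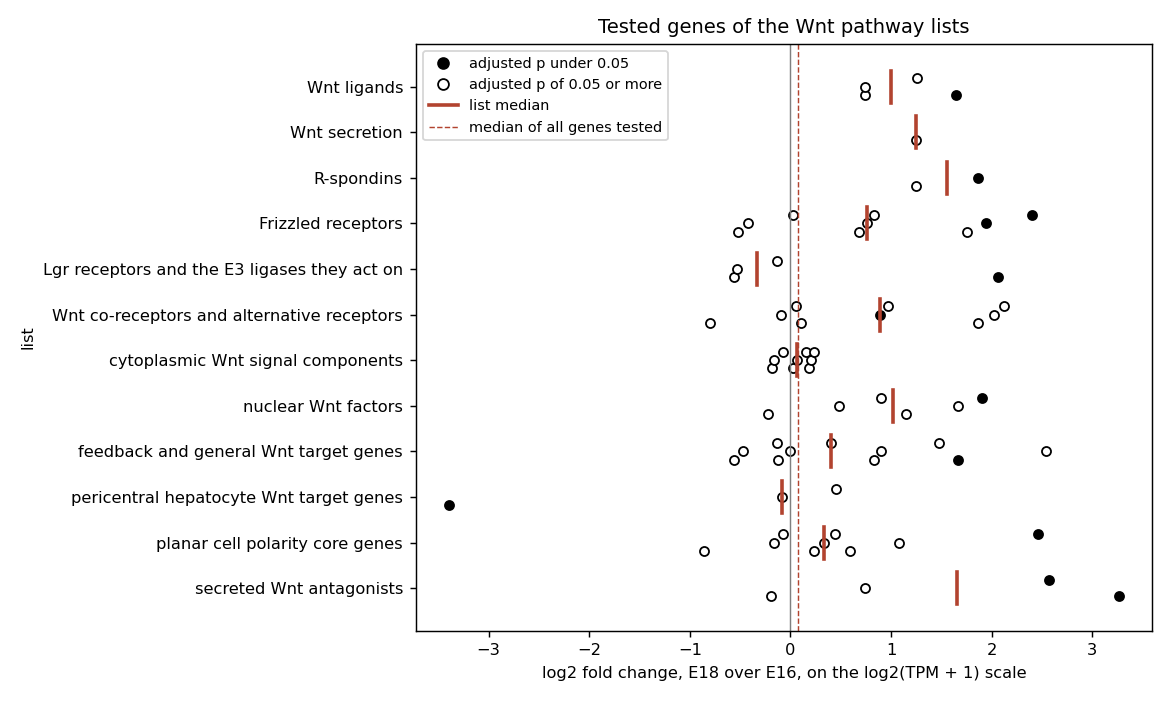
Log2 fold change of E18 over E16 on the log2(TPM + 1) scale for the tested genes of 12 Wnt pathway lists; filled points passed at adjusted p under 0.05, the short line is the list median and the dashed line the median of all genes tested, 0.07. The cytoplasmic components lie between −0.18 and 0.24, with a median of 0.07.

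Of the 19 ligand genes 4 were tested and Wnt5a rose. Wnt2b and Wnt5b, both at 0.74 on the log2 scale, did not pass, and 3 ligands are listed at 0 in all 6 libraries. Wls, which carries Wnt proteins to the cell surface, had 6.49 ± 1.99 TPM at E18 and 2.09 ± 0.197 TPM at E16 (SD, n = 3 each; limma adjusted p = 0.0671). Of the 3 Lgr receptors Lgr6, a further R-spondin receptor, rose by 2.07 ± 0.42, with 3.70, 9.90 and 3.62 TPM in E18 libraries A, B and C and 0.299, 0.440 and 0.721 TPM in E16 libraries A, B and C (limma adjusted p = 0.0482, tested through its E18 libraries alone). Lgr6 was at 0.389, 1.005 and 0.456 TPM per TPM of Lgr4 in E18 libraries A, B and C and at 0.0247, 0.0311 and 0.0501 in E16 libraries A, B and C. The ligases Znrf3 (−0.56 ± 0.26) and Rnf43 (−0.14 ± 0.33) did not pass.

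Of 9 co-receptors and alternative receptors, Gpc4, a cell-surface heparan sulphate proteoglycan, rose by 0.89 ± 0.16 (limma adjusted p = 0.0402). The receptor tyrosine kinase Ror1, which Wnt5a can bind, and the related pseudokinase Ptk7 were at 2.13 ± 0.48 and 2.03 ± 0.43 and did not pass (limma adjusted p = 0.0586 and 0.0507). None of the 9 cytoplasmic components was called, 0 higher and 0 lower, and their smallest p values belonged to Csnk1a1 (0.18 ± 0.12) and Dvl3 (0.24 ± 0.15). They include Ctnnb1, the gene of beta-catenin, at 0.07 on the log2 scale. Of 8 nuclear factors 6 were tested and Tcf7l1, a TCF factor that mostly represses, rose by 1.91 ± 0.38 (limma adjusted p = 0.0468, tested through its E18 libraries alone), while Bcl9l at 1.67 ± 0.37 and Tcf7l2 at 1.15 ± 0.42 did not pass.

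Among 15 feedback and target genes, 11 were tested and Nkd2, an inhibitor that binds Dishevelled, rose by 1.67 ± 0.30 (limma adjusted p = 0.039), and like Apcdd1 it was tested through its E18 libraries alone. It had 3.03 ± 0.432 TPM at E18 and 0.273 ± 0.188 TPM at E16 (SD, n = 3 each). Its relative Nkd1 was at 13.6 ± 8.62 TPM at E18 and 1.45 ± 1.32 TPM at E16, and Apcdd1, another inhibitor, at 2.35 ± 0.529 TPM at E18 and 0.216 ± 0.327 TPM at E16. Both fell short of the threshold (limma adjusted p = 0.054 and 0.0588). The list's median was 0.41, and Axin2, Tcf7, Ccnd1 and Myc were among its 10 tested genes that were not called.

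In the planar cell polarity list Prickle2 rose by 2.46 ± 0.48 (limma adjusted p = 0.0439), 1 of 9 tested, and Vangl2 (1.08 ± 0.40) and Vangl1 (0.59 ± 0.22) did not pass. Of the 10 secreted antagonists 4 were tested and 2 rose. Dkk3, a relative of the Dickkopf inhibitors, had 26.4 ± 8.85 TPM at E18 and 3.52 ± 0.988 TPM at E16 (SD, n = 3 each; limma adjusted p = 0.0273). Sfrp1, a decoy that binds Wnt proteins, had 57.6, 149 and 49.6 TPM in E18 libraries A, B and C and 4.45, 4.51 and 15.6 TPM in E16 libraries A, B and C (limma adjusted p = 0.0358). Sfrp2 (0.75 ± 0.41) and Sfrp4 (−0.19 ± 0.43) did not pass.

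The calls outside the 10 genes were lost in much the same fits. In those without E16 library A or C or E18 library A or B, 0 genes passed at all. Without E16 library B 55 genes passed, and without E18 library C 664 did. With 1 library left out, Gpc4, Lgr6, Tcf7l1 and Nkd2 missed the threshold in 6 of 6 fits, with limma adjusted p of 0.0631 to 0.123, 0.0533 to 0.139, 0.0531 to 0.124 and 0.0505 to 0.13. Fzd4, Prickle2, Dkk3 and Sfrp1 missed it in 5 of 6 and passed without E18 library C, with ranges of 0.0474 to 0.116, 0.0447 to 0.13, 0.0381 to 0.0925 and 0.0454 to 0.11. With median-of-ratios scaling Lgr6 and Tcf7l1 stood just above the threshold, at 0.0503 and 0.0505.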

How the data were processed

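The 6 libraries were made from total RNA with a stranded kit, per the labels' protocols. The authors deposited 1 table of TPM. The submitters' processing notes list, with no role given, HTSeq 0.5.4p3, Bowtie, HISAT2 2.1.0, FastQC 0.11.7 and the build mm10. Not given in the sources used here: the annotation, the strand setting and how TPM was computed. Of 54532 identifiers, 54409 were named through a table of Ensembl symbols. GENCODE M21 (GRCm38, the assembly of mm10) gave exon lengths and positions, counted from 1. TPM times exon length gave whole reads within 0.05 of a read for 96.8% to 97.1% of values above 0, which set the depth; a gene of 1 kb at 1 TPM rests on 4.41 to 6.83 reads.

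Genes with at least 1 TPM in at least 3 libraries entered limma 3.58.1 (R 4.3.3) as log2(TPM + 1). The fit used an intensity trend, and its 2-sided p-values were Benjamini-Hochberg adjusted over all 17824 genes. A fold change on this scale understates the change of low genes. Intervals are limma's 95% intervals. The fit was tested on simulated data. The members and lists were chosen with earlier results of these data known. Named were all members, the called genes of each list and up to 2 further tested genes with the smallest p. The labels do not say whether the letters A, B and C pair the libraries, and the main fit took the libraries as unpaired. Alternatives were other pseudocounts, filters, scalings and variance models, a letter block, voom on recovered reads, and leaving out each library. Figures were drawn with Matplotlib 3.10.9.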

Additional observations from a re-analysis of the deposited data

How the results depend on the processing

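Of 149 member log2 fold changes under 17 alternatives, 143 kept their sign, and of 498 for 30 other named pathway genes, 494 did. The exceptions were Fzd7, at −0.065 with median-of-ratios scaling, −0.048 rescaled without hepatocyte, erythroid and mitochondrial genes and Gm26917, −0.068 with quantile normalization, −0.29 with array weights and −0.18 to 0.24 with 1 library left out; Rnf43, at −0.40 to 0.087 with 1 left out (above 0 without E18 replicate B); Oat, at −0.28 to 0.099 (above 0 without E16 replicate B); and Sfrp4, at 0.34 with array weights and −0.40 to 0.20 (above 0 without E18 replicate B). The cause was not tested. The 3 members called were 1 at pseudocount 0.1, 1 at a mean of at least 5 TPM (5 members tested), 1 with quantile normalization (Fzd1 each time), 5 with array weights (Wnt4 and Lgr4 added), 0 without a filter and 0 with the replicate block. With 1 library left out they numbered 0 to 2. The 618 genes called were 347 at pseudocount 5, 363 at a mean of at least 5 TPM, 399 with quantile normalization, 4316 with array weights, 1469 with voom, 0 without a filter and 0 with the replicate block, and 0 to 664 with 1 library left out. The array weights were 3.62 for E18 library A and 3.76 for E16 library C, against 0.484 to 0.605 for the others. The fit with array weights thus rests mostly on E18 library A and E16 library C. At unadjusted limma p under 0.05 there were 4571 genes without a filter, 3195 with the block and 2765 to 4352 with 1 library left out, and 7, 6 and 5 to 6 of the members. Same-letter libraries deviated from their day's mean with correlations of 0.102 (A), −0.139 (B) and −0.117 (C), and 2 of 6 libraries had their closest match under their own letter. No pairing by letter was thus seen, but so few libraries cannot exclude one. Genes near 1 TPM rest on few reads, 2 to 23 for Wnt2.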

Other observations

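Some ligands too low to be tested were listed on 1 day only. Wnt11 had 1.48, 0.899 and 0.831 TPM in E18 libraries A, B and C, from 27, 17 and 19 reads, and is listed at 0 in each E16 library. Wnt6 had 0.310, 0.499 and 1.49 TPM in E18 libraries A, B and C and is listed at 0 in each E16 library. Wnt8a is listed at 0 in each E18 library and had 2.10, 0.604 and 0 TPM in E16 libraries A, B and C.

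Genes that Wnt signals switch on in hepatocytes around the central vein of the adult liver were mostly low. Of 8, 3 were tested. Glul, glutamine synthetase, had 146 ± 17.6 TPM at E18 and 111 ± 40.3 TPM at E16 (SD, n = 3 each; limma adjusted p = 0.395). Oat, ornithine aminotransferase, was at 191 ± 26.2 TPM at E18 and 206 ± 53.6 TPM at E16 (limma adjusted p = 0.868). Lect2, a secreted hepatocyte protein, fell: it is listed at 0 in each E18 library and had 7.01, 17.7 and 6.72 TPM in E16 libraries A, B and C (limma adjusted p = 0.0273). It was tested through its E16 libraries alone, and with 1 library left out it missed the threshold in 4 of 6 fits, passing without E16 library B and without E18 library C (limma adjusted p of 0.0407 to 0.0925). In those 4 fits 0 of the 17824 genes tested passed. Cyp2e1 did not exceed 1.01 TPM at E18 or 0.628 TPM at E16.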
